A study of Homo sapiens with 12 samples.

Results

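The RUNX family of transcription factors (RUNX1, RUNX2 and RUNX3), their partner subunit CBFB and the RUNX1 fusion partner RUNX1T1 were described in LNCaP, a human prostate cancer cell line that responds to androgen. The 5 genes were taken by symbol from the 34643 genes of the deposited table. RUNX1, RUNX2 and CBFB passed the filter on low counts and were tested, whereas RUNX3 and RUNX1T1 did not pass it.

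RNA-seq was available for 12 libraries in 4 groups of 3: shScramble DHT-, shScramble DHT+, shTMEFF2 DHT- and shTMEFF2 DHT+. All cells carried a lentiviral pLKO.1-puro plasmid with an shRNA under the U6 promoter, kept by puromycin, and the shRNA was a scrambled sequence (shScramble) or one against TMEFF2 (shTMEFF2), an androgen-regulated transmembrane protein. After 24 h in charcoal-stripped serum, which is low in androgen, the cells received 10 nM dihydrotestosterone (DHT), an androgen, or ethanol vehicle for 24 h. The replicates of a group were separate treatments and extractions from 2 transductions, without a statement of which came from which, so the p-values measure the spread between these cultures, and the sequence of the TMEFF2 shRNA in these libraries was not named.

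RUNX proteins bind the sequence TGTGGT and its variants through a shared DNA-binding domain, and CBFB, which does not bind DNA itself, raises that binding as the common partner of all RUNX proteins. RUNX1 is best known from blood formation, RUNX2 from bone formation and RUNX3 from neurons and T cells. RUNX2 has also been studied in prostate cancer, in connection with bone metastasis. RUNX1T1 belongs to a family of corepressors and forms a fusion protein with RUNX1 in acute myeloid leukaemia.

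The genes lie apart in the genome. On GRCh38 in the GENCODE annotation, RUNX1 spans chr21:34787801-36004667 (minus strand), RUNX2 chr6:45328157-45664349 (plus strand), RUNX3 chr1:24899511-24965121 (minus strand) and CBFB chr16:67028984-67101058 (plus strand). Each RUNX gene is overlapped by genes on the other strand (4 for RUNX1, 3 for RUNX2 and 1 for RUNX3), and reads from shared exons could not be assigned to a strand, because the strandedness of the libraries is not given in the sources used here. On the same strand, 4 genes overlap RUNX1 and 1 overlaps RUNX3. Sharing among the family was small. Of the 31-base words in the annotated transcripts of a gene, 0.0701% for RUNX1, 0.0239% for RUNX2 and 0.264% for RUNX3 also occurred in another member, and none of the CBFB words did. The shares that occurred in genes other than the members were 1.99% for RUNX1, 0.275% for RUNX2, 0.122% for RUNX3 and 1.46% for CBFB.

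RUNX2 and RUNX3 are each transcribed from a distal and a proximal promoter, and the windows before the distal starts hold letters of the family's own motif. RefSeq promoter sequences on GRCh38.p14 were searched over the 250 bases before each start for TGTGGT and TGCGGT on both strands. The only RUNX1 start listed, chr21:34888699, lies inside the annotated gene, whose 5′ end is at 36004667. Windows before any other start of RUNX1, including distal ones, were therefore not searched. Of the 35116 windows in the table, 16.3% held at least 1 match and 0.151% held 3 or more, while the share with at least 2 was not computed. RUNX2 and RUNX3 had 2 matches each in the distal window, and the windows before the proximal starts and the RUNX1 start listed had 0. Shown here, for these matches, are the parts of both distal windows that precede every annotated transcript, with 1 of the RUNX2 and both of the RUNX3 matches, at chr6:45328080-45328156 on the plus strand and chr1:24965122-24965260 on the minus strand, 5′ to 3′, with matches on the reverse strand in capitals.
RUNX2 distal: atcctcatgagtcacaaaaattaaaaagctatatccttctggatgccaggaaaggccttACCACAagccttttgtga
RUNX3 distal: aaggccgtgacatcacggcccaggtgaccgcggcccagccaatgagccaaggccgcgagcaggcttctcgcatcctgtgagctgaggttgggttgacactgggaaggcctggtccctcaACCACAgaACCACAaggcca
A run of 18 bases with both matches of RUNX3 also occurred in RUNX2, where it begins at position 15 of the RefSeq transcript, at chr6:45328344-45328361. It was found in 2 windows of the table, these 2.
Shared run: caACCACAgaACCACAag
The androgen response half-site TGTTCT, present in 12.4% of windows, was not among the letters of the 250 bases before any of these starts. A match of letters is a description and not a binding site.

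The libraries held 19450866 to 22612046 estimated counts, and their normalization factors ranged from 0.955 to 1.04. TMEFF2, the shRNA target, was lower in shTMEFF2 than in shScramble by 0.43 on the log2 scale without DHT and by 0.41 with DHT. The libraries overlapped and the edgeR adjusted p-values were 0.503 and 0.304, so the lower TMEFF2 RNA did not pass the test in these libraries. The authors report appreciable silencing of TMEFF2 protein on Western blots of LNCaP cells with some of their shRNAs. Protein is not measured by these libraries. All 7 luminal prostate markers were measured, and their summed level was 6415 to 6686 CPM in shScramble DHT-, 12253 to 12977 in shScramble DHT+, 4247 to 4732 in shTMEFF2 DHT- and 5046 to 6091 in shTMEFF2 DHT+. Of markers of cells in which RUNX genes are high, 3 of 7 blood cell markers were tested (summed 8.48 to 13.5 CPM over all libraries, CD3E at or under 3 counts) and 3 of 7 mesenchymal and bone markers (summed 12.9 to 34.8 CPM, SP7 and IBSP at or under 3 counts). Of 4 basal epithelial markers, KRT5 was at or under 3 counts and 1 was tested, with summed levels of 0.196 to 0.673 CPM in 3 groups and 1.17 to 1.92 CPM in shScramble DHT+. The part of these cell type markers in the results below was not tested. In bulk RNA, fewer cells that express a gene and less of its RNA per cell cannot be told apart.

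RUNX2, the factor of bone formation, rose with DHT in both lines. In shScramble DHT- the 3 libraries stood at 7.01, 7.04 and 7.34 TMM-normalized CPM, and in shScramble DHT+ at 12.2, 15.9 and 11.2 CPM. In shTMEFF2 DHT- they stood at 4.81, 3.28 and 4.78 CPM, and in shTMEFF2 DHT+ at 12.04, 11.3 and 12.5 CPM. All 6 libraries with DHT lay above all 6 without it, and the shTMEFF2 DHT- libraries were the lowest of the series. These levels correspond to 73.6 to 326 estimated counts per library.

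**Figure D1:**
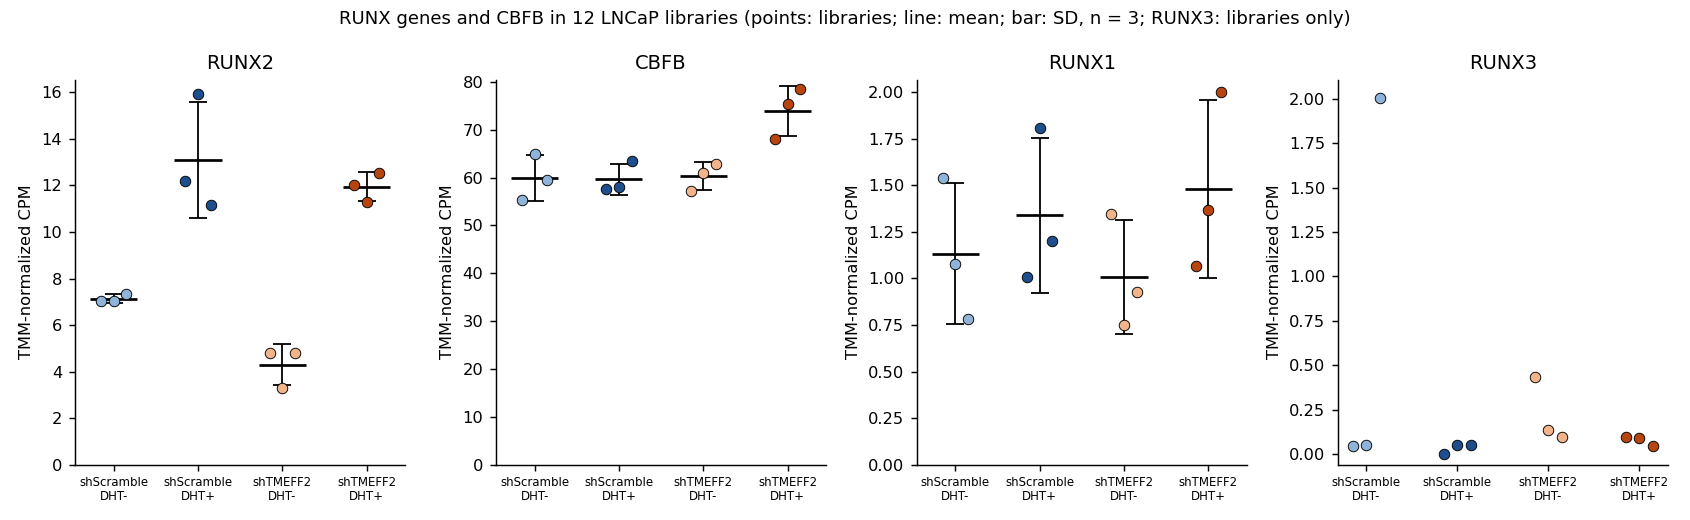
Levels of RUNX2, CBFB, RUNX1 and RUNX3 in TMM-normalized CPM (y axes, linear) in the 4 groups (x axes), with 1 point per library and, except for RUNX3, the mean and SD of 3 libraries. RUNX2 separates the libraries with and without DHT, CBFB is highest in shTMEFF2 DHT+, and 1 shScramble DHT- library holds most of the RUNX3 signal.

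With DHT, RUNX2 was 1.84-fold higher in shScramble (log2 fold change 0.88 ± 0.16 SE, n = 3 and 3, edgeR adjusted p = 0.0016) and 2.79-fold higher in shTMEFF2 (1.48 ± 0.17, edgeR adjusted p = 0.00042). A call required both a 1.5-fold change and an adjusted p not above 0.05. RUNX2 was the only member called in either comparison, against 11.9% of the 15419 genes tested for DHT in shScramble and 4.88% for DHT in shTMEFF2. Both calls held in each of 21 alternative analyses. RUNX2 was chosen for description with a DHT response in these data already known, so these values are not independent evidence of the direction.

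Without DHT, RUNX2 was at 0.601 of its shScramble level in shTMEFF2 (log2 fold change -0.74, 95% interval -1.11 to -0.36, unadjusted p = 0.00094), and the libraries of both groups did not overlap. The adjusted p of 0.0678 in edgeR missed the threshold, where 0.571% of all genes were called. DESeq2 (adjusted p = 0.0074) and edgeR without a filter on low counts (adjusted p = 0.043) did call it. With DHT the lines overlapped and the difference was -0.13 (95% interval -0.48 to 0.21, edgeR adjusted p = 0.642). The DHT response was 0.60 larger in shTMEFF2 on the log2 scale (95% interval 0.10 to 1.11), with an unadjusted p of 0.023 and an edgeR adjusted p of 0.186 in the interaction test, in which 4.94% of genes passed. Over the 4 groups the order of RUNX2 levels was therefore shTMEFF2 DHT- (4.29 ± 0.88 CPM, SD), shScramble DHT- (7.13 ± 0.18), shTMEFF2 DHT+ (11.95 ± 0.64) and shScramble DHT+ (13.1 ± 2.5), and the highest pair, both with DHT, did not differ beyond their spread.

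**Figure D2:**
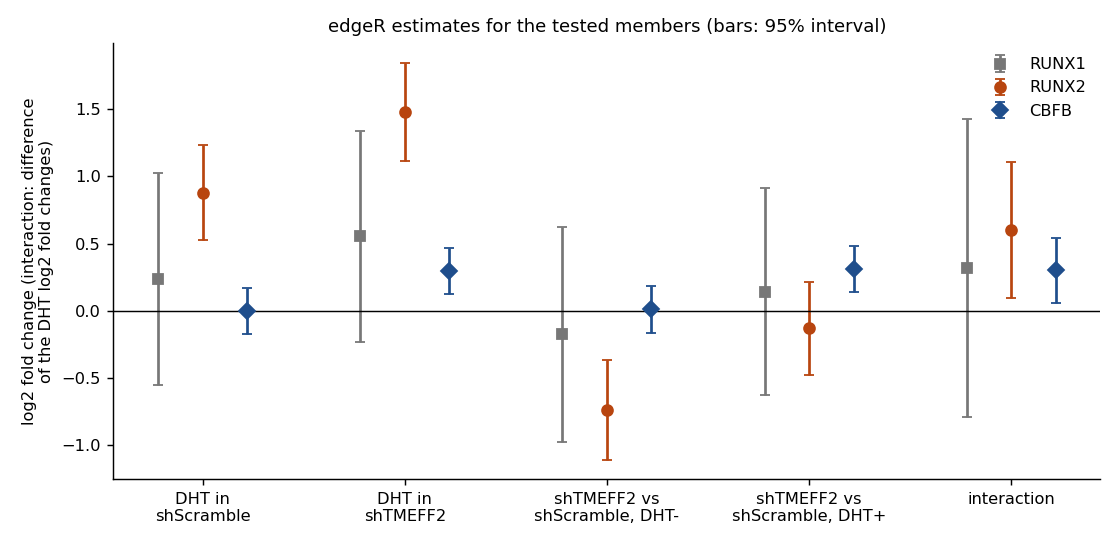
Log2 fold changes of RUNX1, RUNX2 and CBFB (y axis) in the 5 comparisons (x axis), as edgeR estimates with 95% intervals. The RUNX2 intervals lie above 0 for DHT in both lines and for the interaction, and below 0 for shTMEFF2 against shScramble without DHT. The CBFB intervals exclude 0 for DHT in shTMEFF2, for shTMEFF2 against shScramble with DHT and for the interaction. Every RUNX1 interval includes 0. Intervals are not adjusted for the number of genes, and after adjustment neither interaction nor the RUNX2 difference without DHT passed in edgeR.

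CBFB, the partner subunit, was high and even, except in shTMEFF2 DHT+. Its libraries stood at 55.3, 64.8 and 59.5 CPM in shScramble DHT-, at 57.6, 58.0 and 63.4 CPM in shScramble DHT+, and at 57.1, 60.9 and 62.8 CPM in shTMEFF2 DHT-. In shTMEFF2 DHT+ they stood at 68.2, 75.4 and 78.4 CPM, above all other 9 libraries. CBFB was 1.23-fold higher with DHT in shTMEFF2 (log2 fold change 0.30 ± 0.079 SE, edgeR adjusted p = 0.028) and 1.24-fold higher in shTMEFF2 than in shScramble with DHT (0.31 ± 0.079, edgeR adjusted p = 0.018). Both lie under the fold limit of 1.5, so CBFB was not called. On the adjusted p alone, 13.1% of genes passed in the first of these comparisons and 16.0% in the second.

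The rise of CBFB was near the threshold. For DHT in shTMEFF2, the adjusted p was 0.102 without shTMEFF2 DHT- replicate 1, 0.074 without shTMEFF2 DHT- replicate 2, 0.069 without shTMEFF2 DHT+ replicate 2 and 0.106 without shTMEFF2 DHT+ replicate 3. For shTMEFF2 against shScramble with DHT it was 0.063 without shScramble DHT+ replicate 1 and 0.058 without shTMEFF2 DHT+ replicate 3. In shScramble, CBFB differed by -0.0046 with DHT (95% interval -0.18 to 0.17), and without DHT the lines differed by 0.0097 (95% interval -0.16 to 0.18). The DHT responses of the lines differed by 0.30 (95% interval 0.06 to 0.54, unadjusted p = 0.019, edgeR adjusted p = 0.168). In shTMEFF2 against shScramble without DHT, shTMEFF2 against shScramble with DHT and the interaction, 0 members were called by edgeR, while 1, 1 and 2 members had an unadjusted p of at most 0.05. DESeq2 called 1, 0 and 0 there and limma-voom 0 in each, and 6.77% of all genes were called by edgeR for shTMEFF2 against shScramble with DHT.

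RUNX1, the factor of blood formation, was low and variable. It stood at 1.54, 1.08 and 0.783 CPM in shScramble DHT- and at 1.01, 1.81 and 1.20 CPM in shScramble DHT+. In shTMEFF2 DHT- it stood at 1.35, 0.752 and 0.928 CPM, and in shTMEFF2 DHT+ at 1.06, 1.37 and 2.00 CPM. All 4 groups overlapped, at 15.9 to 44.9 counts per library. The log2 fold change with DHT was 0.24 in shScramble (95% interval -0.55 to 1.02) and 0.55 in shTMEFF2 (95% interval -0.23 to 1.34), and edgeR adjusted p-values over the 5 comparisons lay between 0.361 and 0.902. In shScramble the interval still includes the RUNX2 estimate of 0.88, whereas in shTMEFF2 it ends below the RUNX2 estimate of 1.48. These RUNX2 estimates carry an error of their own, and RUNX1 was not tested against RUNX2. No RUNX1 response was detectable at this depth.

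RUNX3, the family member of neurons and T cells, was close to absent in most libraries. It had 0 to 1.14 counts in 5 of the 6 shScramble libraries, 2.29 to 8.55 counts in shTMEFF2 DHT- and 0.769 to 2.28 counts in shTMEFF2 DHT+. The exception was shScramble DHT- replicate 3, with 41.3 counts. Nearly all of these, 39.8, came from 1 of the 2 deposited columns of that library, in which RUNX1 had 0.412 counts, while the other column held 1.58 counts of RUNX3 and 15.5 of RUNX1. With no filter on low counts, edgeR called RUNX3 lower with DHT in shScramble (adjusted p = 0.024), and without this library, an analysis added after seeing the data, the adjusted p was 0.962.

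RUNX1T1, a corepressor gene at chr8:91954972-92103286 (minus strand), was at 0 counts in all 6 shScramble libraries. In shTMEFF2 it had 0.487 and 1.05 counts in 2 DHT- libraries and 2.07 counts in 1 DHT+ library. Every library was at or under the floor of 3 counts, so no fold change is given.

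Levels of different members can be compared per length. Divided by the length of the MANE transcript (5.971 kb for RUNX1, 5.54 kb for RUNX2, 4.267 kb for RUNX3 and 3.103 kb for CBFB), CBFB was at 17.8 to 25.3 CPM per kb, RUNX2 at 0.591 to 2.87, RUNX1 at 0.126 to 0.335 and RUNX3 at 0 to 0.470. The deposited counts were scaled by the average length of the transcripts in use, so this division is approximate. RUNX2 was the main RUNX transcript in every library. It made up 68.8% to 86.8% of the summed RUNX1, RUNX2 and RUNX3 level per kb in shScramble DHT-, 90.1% to 92.9% in shScramble DHT+, 72.6% to 83.0% in shTMEFF2 DHT- and 86.8% to 91.6% in shTMEFF2 DHT+. The lowest share was that of the library with RUNX3 counts.

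CBFB exceeded the summed RUNX level in all libraries, by a ratio of CPM per kb of 9.95 to 14.3 in shScramble DHT-, 5.87 to 9.18 in shScramble DHT+, 15.4 to 26.2 in shTMEFF2 DHT- and 9.26 to 10.6 in shTMEFF2 DHT+. The ratio was lower with DHT than without it in both lines, without overlap, and it was highest in shTMEFF2 DHT-, the group with the least RUNX2. These values are RNA levels per length and were not tested.

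The table holds 2 columns for each library, which were summed, and they give a view of the error within a library. The mean chi-square between the columns, which counting error alone would put near 1, was 3.24 for RUNX2, 5.20 for RUNX1 and 10.4 for CBFB, with a median of 2.26 over the genes tested. RUNX2 thus lay above 65.1% of genes, RUNX1 above 81.5% and CBFB above 93.6%. The RUNX2 response appeared in both columns, with log2 fold changes of 0.78 and 0.98 for DHT in shScramble and 1.74 and 1.16 for DHT in shTMEFF2, all past the threshold. In shTMEFF2 DHT+ replicate 1 its columns stood apart, at 16.0 and 7.80 CPM. The larger DHT response of RUNX2 in shTMEFF2 rested more on the first column (0.96, edgeR adjusted p = 0.076) than on the second (0.19, edgeR adjusted p = 0.848). For CBFB the rise with DHT in shTMEFF2 was 0.26 and 0.34 in the columns, with edgeR adjusted p-values of 0.134 and 0.128. For shTMEFF2 against shScramble with DHT, CBFB was at 0.40 in the first column (edgeR adjusted p = 0.022) and 0.22 in the second (edgeR adjusted p = 0.312). The difference between the DHT responses of CBFB was 0.50 in the first column and 0.09 in the second, with edgeR adjusted p-values of 0.089 and 0.881.

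**Figure D3:**
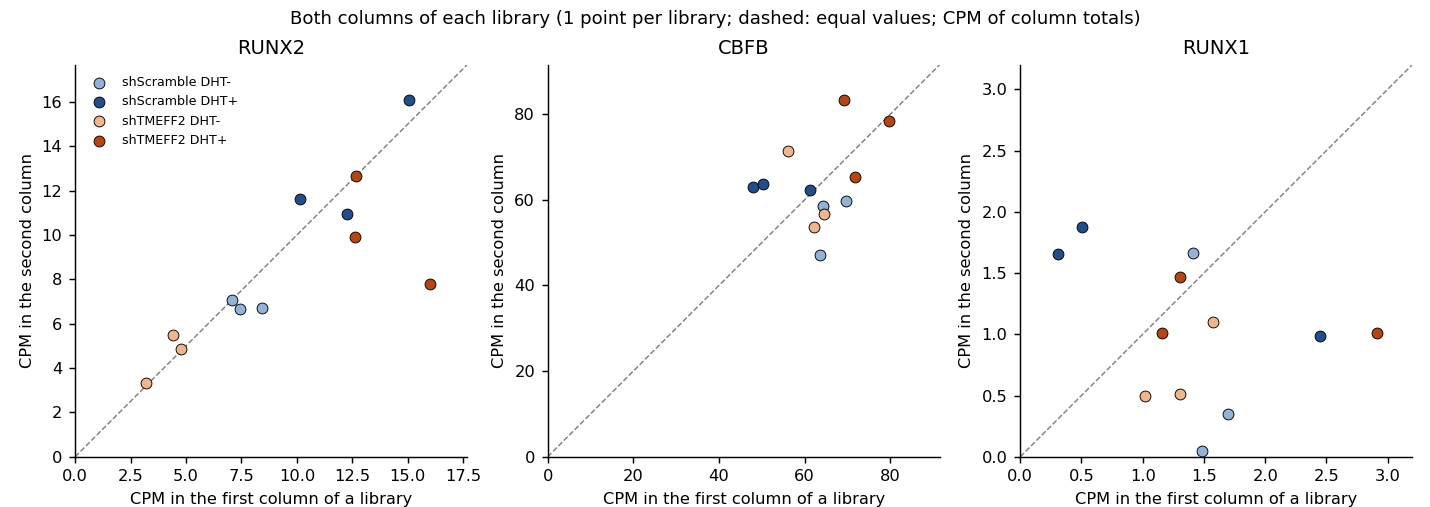
CPM of RUNX2, CBFB and RUNX1 in the first (x axes) and second (y axes) deposited column of each library, scaled to the column total, with 1 point per library and a dashed line of equal values. The RUNX2 point farthest from the line is a shTMEFF2 DHT+ library at 16.0 and 7.80 CPM, and RUNX1 points scatter widely.

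The genes whose pattern over the 12 libraries was most like that of RUNX2, by the root mean square difference of centred log2 CPM, were OACYLP (0.25), ERCC6L (0.26) and OSBPL8 (0.27). OACYLP is a pseudogene, ERCC6L a DNA translocase of the mitotic spindle checkpoint and OSBPL8 a lipid transfer protein. Each was called with DHT in both lines, at log2 fold changes of 0.92 and 1.16 for OACYLP, 0.77 and 1.12 for ERCC6L and 1.00 and 0.96 for OSBPL8. For shTMEFF2 against shScramble without DHT, none of them was called by edgeR, at log2 fold changes of -0.30 (adjusted p = 0.582) for OACYLP, -0.23 (adjusted p = 0.586) for ERCC6L and -0.52 (adjusted p = 0.010, under the fold limit) for OSBPL8. The likeness was measured on the same libraries and carries no test.

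Genes that work with RUNX proteins or lie under their control were described by 7 lists with 95 genes in all, of which 75 were tested. Of these, 11 (14.7%) were called for DHT in shScramble, 7 (9.33%) for DHT in shTMEFF2, 1 (1.33%) for shTMEFF2 against shScramble without DHT, 9 (12%) for shTMEFF2 against shScramble with DHT and 6 (8%) in the interaction. The shares over all genes tested were 11.9%, 4.88%, 0.571%, 6.77% and 4.94%. The median log2 fold changes of the lists together were -0.09, -0.07, 0.02, 0.12 and 0.02, beside -0.013, -0.021, -0.0037, 0.0041 and 0.0062 over all genes tested. For DHT in shTMEFF2, edgeR called 0 coactivators, SMADs, partner factors and blood and growth control targets, with 4, 2, 3 and 2 at an unadjusted p of at most 0.05. DESeq2 called 1, 0, 0 and 0 of them and limma-voom 0 of each.

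Among the corepressors, which RUNX proteins recruit to silence genes, 1 of 12 was called for DHT in shScramble. This was TLE3, a Groucho family member, which fell from 183 ± 7.3 to 121 ± 4.0 CPM (SD, n = 3; log2 fold change -0.59, edgeR adjusted p = 0.00010). In shTMEFF2 it went from 203 to 167 CPM with DHT, a log2 fold change of -0.28 under the fold limit. No corepressor was called by edgeR in the other 4 comparisons, where 6, 2, 5 and 1 had an unadjusted p of at most 0.05, DESeq2 called 1, 1, 1 and 0, and limma-voom called 0.

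The coactivators include acetyltransferases and the Hippo pathway effectors YAP1 and WWTR1 (TAZ), which bind RUNX proteins through a PY motif. With DHT in shScramble, 2 of 10 were called, in opposite directions. YAP1 fell from 169 ± 0.94 to 109 ± 8.1 CPM (log2 fold change -0.64, edgeR adjusted p = 1.4e-05). WWTR1 rose from 1.49, 1.44 and 1.03 CPM to 7.01, 12.9 and 6.40 CPM (2.73 ± 0.31 SE, edgeR adjusted p = 4.0e-05). In shTMEFF2, WWTR1 stood at 1.83, 1.86 and 3.02 CPM without DHT and at 3.98, 3.74 and 4.76 CPM with it. That rise of 0.90 did not pass the test (edgeR adjusted p = 0.065), although the libraries did not overlap. With DHT, WWTR1 was lower in shTMEFF2 than in shScramble by 1.07 on the log2 scale (edgeR adjusted p = 0.020), a difference of -0.68 (adjusted p = 0.097) without shScramble DHT+ replicate 2, its highest library. The adjusted p was 0.064 without shTMEFF2 DHT+ replicate 1 and 0.072 without shTMEFF2 DHT+ replicate 2, and it was 0.166 in the second column alone.

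**Figure D4:**
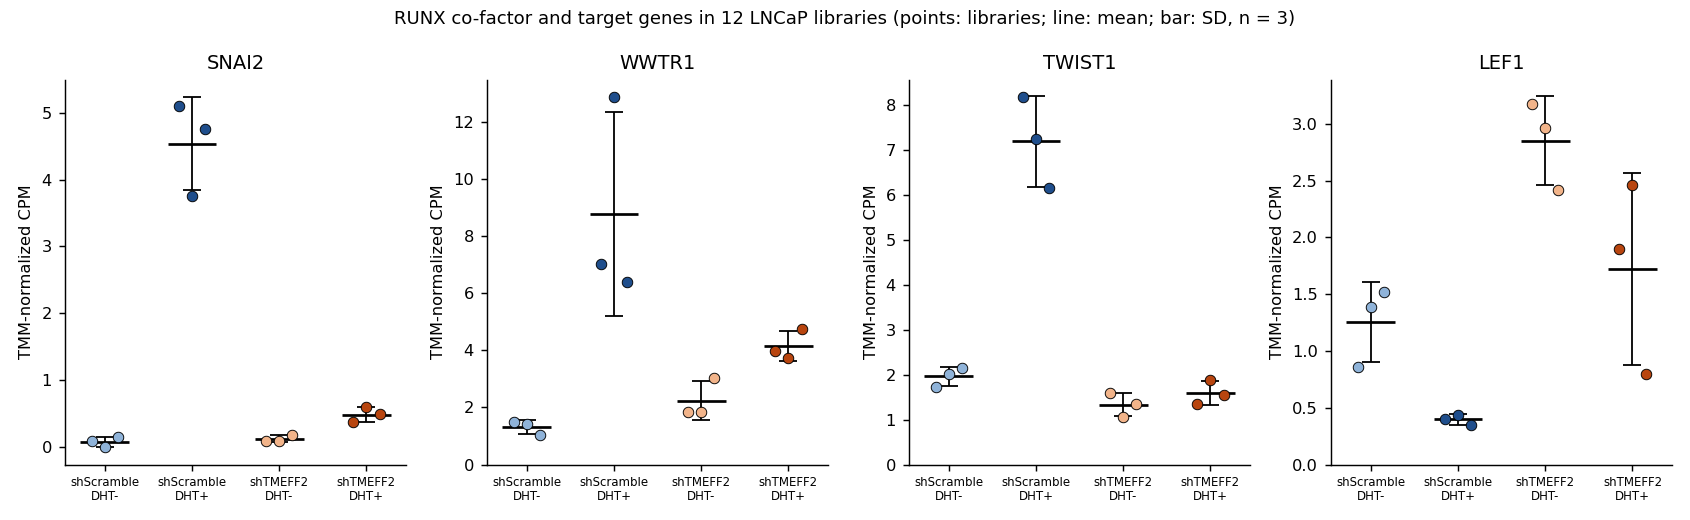
Levels in TMM-normalized CPM (y axes, linear) of SNAI2, WWTR1, TWIST1 and LEF1 in the 4 groups (x axes), with 1 point per library and the mean and SD of 3 libraries. SNAI2, WWTR1 and TWIST1 are highest in shScramble DHT+, where LEF1 is lowest.

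The kinases and ubiquitin ligases that modify RUNX proteins held 0 of 16 called genes for DHT in shScramble by edgeR, DESeq2 or limma-voom, with 4 at an unadjusted p of at most 0.05, and 4 of 16 for DHT in shTMEFF2. The mitotic kinase CDK1 rose from 167 ± 22.7 to 347 ± 25.0 CPM there (log2 fold change 1.05, edgeR adjusted p = 0.00042). In shScramble it went from 174 to 229 CPM, a log2 fold change of 0.40 under the fold limit, and the interaction of 0.65 passed (edgeR adjusted p = 0.043), although its adjusted p was 0.054 to 0.106 when any of 9 libraries was left out, the exceptions being shScramble DHT- replicate 1, shScramble DHT+ replicate 2 and shTMEFF2 DHT- replicate 3, and 0.074 in the first column alone. CDC20, an activator of the anaphase-promoting complex, went from 53.4 ± 10.0 to 85.5 ± 19.0 CPM in shTMEFF2 (0.68, edgeR adjusted p = 0.030), with overlapping libraries, and its adjusted p was 0.090 to 0.119 without replicate 1 or 2 of shTMEFF2 DHT- or replicate 2 or 3 of shTMEFF2 DHT+, and 0.058 in the second column alone. The other called gene of this list was CCNB1, the cyclin partner of CDK1, named here after its value was seen.

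MDM2, the ubiquitin ligase of p53, was called higher in shTMEFF2 than in shScramble without DHT (log2 fold change 1.33, edgeR adjusted p = 0.0080) and lower with DHT in shTMEFF2 (-1.39, edgeR adjusted p = 0.0012). Both calls rested on the second column of the shTMEFF2 DHT- libraries. That column held 2874, 2276 and 1206 counts, whereas the first column held 569, 714 and 513 counts, and no column of the other 9 libraries exceeded 678 counts. Without DHT, MDM2 was the only gene of the 7 lists that edgeR called, a call lost without shScramble DHT- replicate 1 (adjusted p = 0.0503) and in a fit of the libraries of the comparison alone (adjusted p = 0.052). In the first column alone the differences were 0.04 (edgeR adjusted p = 0.958) and -0.04 (edgeR adjusted p = 0.908).

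The SMADs carry signals of the TGF-beta and BMP families and form complexes with RUNX proteins. With DHT in shScramble, 2 of 8 were called, both lower. SMAD1, a BMP effector, stood at 27.5, 29.6 and 29.4 CPM without DHT and at 14.6, 16.9 and 14.9 CPM with it (log2 fold change -0.90 ± 0.11 SE, edgeR adjusted p = 8.5e-05). In shTMEFF2 it stood at 27.2, 35.1 and 25.9 CPM and at 23.4, 24.0 and 24.1 CPM, so the groups were closer there (-0.30, edgeR adjusted p = 0.093). SMAD7, an inhibitory SMAD, fell by 0.66 on the log2 scale in shScramble (edgeR adjusted p = 0.0041), a call missed in the second column alone (-0.47, adjusted p = 0.149), and was at -0.51 in shTMEFF2, under the fold limit. With DHT, SMAD1 was 0.62 higher in shTMEFF2 than in shScramble on the log2 scale (edgeR adjusted p = 0.0024).

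Among partner transcription factors, 3 of 14 were called for DHT in shScramble. TWIST1, a mesenchymal factor that binds the RUNX domain, rose from 1.72, 2.00 and 2.15 CPM to 8.18, 7.22 and 6.15 CPM in shScramble (1.87 ± 0.21 SE, edgeR adjusted p = 3.3e-05). In shTMEFF2 it stood at 1.59, 1.06 and 1.35 CPM without DHT and at 1.34, 1.87 and 1.56 CPM with it, with overlap (0.26, edgeR adjusted p = 0.515). The DHT responses of TWIST1 differed by -1.61 (edgeR adjusted p = 0.0097), and by -1.13 (adjusted p = 0.187) in the first column alone.

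LEF1, a factor of the Wnt pathway, moved the other way. It fell from 0.860, 1.39 and 1.52 CPM to 0.404, 0.439 and 0.350 CPM with DHT in shScramble (log2 fold change -1.64 ± 0.42 SE, edgeR adjusted p = 0.012), a call missed in each column alone (adjusted p = 0.096 and 0.073). With DHT it was 2.09 higher in shTMEFF2 than in shScramble on the log2 scale, at 1.90, 2.46 and 0.801 CPM (edgeR adjusted p = 0.0044). LEF1 was also higher in shTMEFF2 without DHT, at 3.17, 2.97 and 2.41 CPM and without overlap, but edgeR did not call that difference. HES1, a target of Notch, was 0.80 lower in shTMEFF2 than in shScramble with DHT on the log2 scale (edgeR adjusted p = 0.047), a call lost in 10 alternative analyses, 8 of which left out a library (adjusted p = 0.052 to 0.155; every library of the 2 groups apart from shTMEFF2 DHT+ replicate 2, and shScramble DHT- replicate 1, shTMEFF2 DHT- replicate 1 and shTMEFF2 DHT- replicate 3).

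Of 15 skeletal and invasion targets of RUNX2, 6 were tested, and 2 were called for DHT in shScramble and 3 for DHT in shTMEFF2. SNAI2 (Slug), a repressor linked to epithelial-mesenchymal transition, had 1.98, 0 and 3.00 counts in shScramble DHT- and 101, 76.7 and 94.8 counts in shScramble DHT+. The ratio of the summed levels was 55.9 (95% counting interval 23.7 to 174). In shTMEFF2 it had 1.96, 1.95 and 3.94 counts without DHT and 7.85, 12.8 and 10.9 counts with it, a ratio of 3.94 (95% counting interval 1.78 to 9.89). The libraries with DHT lay above those without it in both lines, and the responses differed by -3.79 on the log2 scale (edgeR adjusted p = 0.020). The rise in shTMEFF2 (edgeR adjusted p = 0.028) was not called without replicate 1 or 2 of shTMEFF2 DHT- or replicate 2 or 3 of shTMEFF2 DHT+ (adjusted p = 0.078 to 0.107), and in the first column alone it was 1.02 (adjusted p = 0.400). The difference between the responses did not pass without shTMEFF2 DHT- replicate 3 (adjusted p = 0.081) or in the first or second column alone (adjusted p = 0.058 and 0.286).

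Other skeletal and invasion targets did not share one direction. COL1A1, the main collagen of bone, fell with DHT in both lines, from 18.9 ± 0.27 to 12.3 ± 0.58 CPM in shScramble (log2 fold change -0.61, edgeR adjusted p = 0.0034) and from 25.3 ± 4.7 to 15.8 ± 1.5 CPM in shTMEFF2 (-0.68, edgeR adjusted p = 0.0044). BIRC5 (survivin), an inhibitor of apoptosis that also serves mitosis, rose with DHT in shTMEFF2 from 68.6 ± 18.3 to 118 ± 18.7 CPM (0.78, edgeR adjusted p = 0.011). The adjusted p of BIRC5 was 0.051 without shTMEFF2 DHT- replicate 1, 0.054 without shTMEFF2 DHT- replicate 2 and 0.053 without shTMEFF2 DHT+ replicate 3. VEGFA, the angiogenic growth factor, was 0.90 lower in shTMEFF2 than in shScramble with DHT (edgeR adjusted p = 0.0054).

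Of 17 targets from blood formation and growth control, 9 were tested. CDKN1A, the cell cycle inhibitor p21, fell with DHT in shScramble from 237 ± 21.8 to 156 ± 12.1 CPM (log2 fold change -0.61, edgeR adjusted p = 0.0076), the only call there. The tight junction gene CLDN1 was called higher in shTMEFF2 with DHT (2.58, edgeR adjusted p = 0.042) at 54.3, 12.1 and 13.9 counts against 3.44, 6.08 and 2.62, and without shTMEFF2 DHT+ replicate 1 the value was 1.53 (adjusted p = 0.226). Without any 1 of the 6 shScramble libraries its adjusted p was 0.054 to 0.127. Over all 7 lists, 16 of the 75 tested genes were called for DHT in 1 or both lines.

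**Figure D5:**
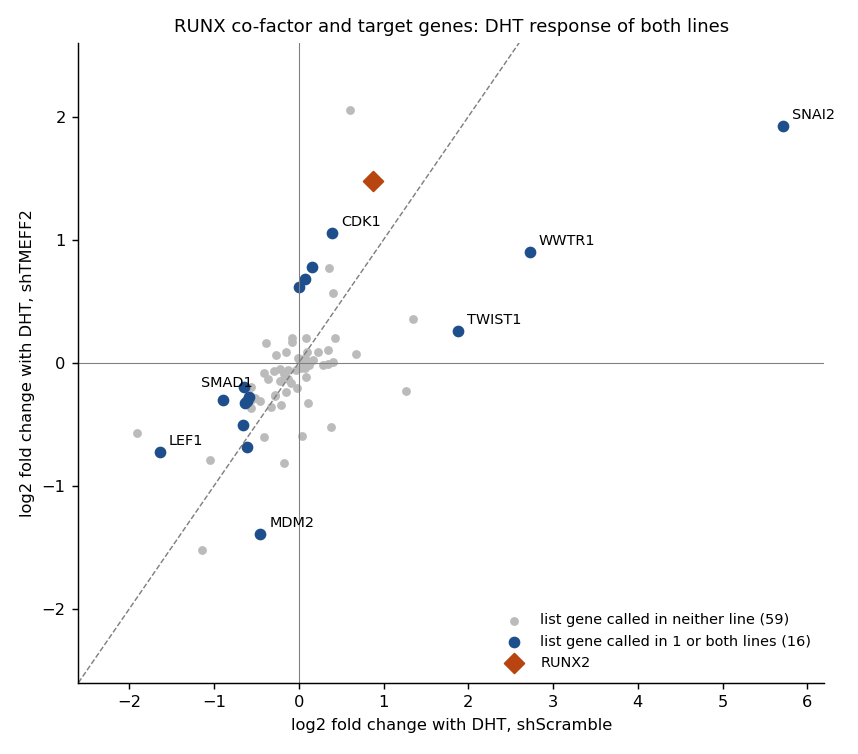
Log2 fold change with DHT in shScramble (x axis) and in shTMEFF2 (y axis) of the 75 tested genes of the 7 lists, with RUNX2 as a diamond and a dashed line of equal values. The 16 genes called in 1 or both lines are blue and 59 are grey, and SNAI2, WWTR1 and TWIST1 lie far to the right while RUNX2 and CDK1 lie above the line.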

How the data were processed

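RNA-seq of 12 LNCaP libraries (75 bp paired-end reads) was taken from a table of estimated counts per gene that the authors deposited. Per the labels and methods, the authors used FastQC, removed contaminants, trimmed with Trimmomatic to at least 15 bp, quantified with kallisto 0.42.3 on GRCh38 with bias correction, and tested with DESeq2. The file name gives tximport counts scaled by transcript length, so values need not be whole, and a change of isoform alone should alter them little. The table has 24 columns, 2 per library. They were summed and rounded, and 0 columns lacked a library.

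Counts were analysed in R 4.3.3 with edgeR 4.0.16 (TMM, filterByExpr with minimum count 10 and total 15, glmQLFit and glmQLFTest on all 12 libraries with 1 coefficient per group), with Benjamini-Hochberg adjustment over 15419 genes. A call needed a fold change of 1.5 and an adjusted p of 0.05, the interaction the adjusted p alone. CPM use TMM factors. A floor of 3 counts per library was set, and counting intervals (exact Clopper-Pearson, 95%) cover counting error only. Alternatives were library size only, DESeq2 1.42.0, limma-voom (limma 3.58.1), no filter, a mean above 5 CPM, the libraries of a comparison alone, a replicate block, 1 column per library, and each library left out. The statistics were tested on simulated counts. Positions are from GENCODE v44. Promoters are from RefSeq, which matched 3 of the 5 genes.

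Text names the members, TMEFF2, markers, up to 3 called genes per list and comparison with the largest change, and the 3 genes with the pattern most like a called member (log2 CPM, prior count 2). The members and lists were chosen with earlier results of these data known. Protein sequences were not analysed here, and the results of some list and marker genes are not reported here.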

Additional observations from a re-analysis of the deposited data

Results flagged for a closer look

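For 8 genes named in the text the DHT response differed between the lines in the interaction test (shTMEFF2 minus shScramble, edgeR). These include the co-factors and targets WWTR1 (log2 difference -1.83, adjusted p = 0.027), CDK1 (0.65, adjusted p = 0.043), SMAD1 (0.60, adjusted p = 0.049), TWIST1 (-1.61, adjusted p = 0.0097) and SNAI2 (-3.79, adjusted p = 0.020). SMAD1 did not pass when any of 10 libraries was left out (adjusted p = 0.069 to 0.110), the exceptions being shScramble DHT+ replicate 2 and shTMEFF2 DHT- replicate 2, nor by limma-voom (adjusted p = 0.055), with no filter (0.053) or in the first or second column alone (0.188 and 0.052), which makes 14 of 20 alternatives. WWTR1 did not pass without shScramble DHT- replicate 2 or 3, shTMEFF2 DHT- replicate 3 or shTMEFF2 DHT+ replicate 1 or 2 (adjusted p = 0.059 to 0.070), by limma-voom (adjusted p = 0.067) or in the second column alone (0.165). In a column alone, CDK1 (first, adjusted p = 0.074), TWIST1 (first, 0.187) and SNAI2 (first 0.058, second 0.286) did not pass either.

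Among markers, the luminal keratins KRT8 (-1.49, adjusted p = 8.4e-05) and KRT18 (-1.07, adjusted p = 8.6e-05) differed in the same way. KRT8 went from 448 to 1138 CPM with DHT in shScramble and from 492 to 444 CPM in shTMEFF2, and KRT18 from 354 to 777 CPM and from 341 to 356 CPM. COL3A1, a collagen gene of mesenchymal cells, differed by 2.36 (adjusted p = 0.014) at group means of 0.398 to 2.31 CPM, and did not pass in the first or second column alone (adjusted p = 0.056 and 0.086). It was the only 1 of the 3 tested mesenchymal and bone markers to pass, and the median difference of these markers was -0.07. Of the RUNX genes and CBFB, none passed this test in edgeR, with RUNX2 and CBFB at an unadjusted p of at most 0.05 and 0 called by DESeq2 or limma-voom.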

How the results depend on the processing

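RUNX2 was called with DHT in both lines under all 21 alternatives. For shTMEFF2 against shScramble without DHT, 1 member (RUNX2) was called by DESeq2 and by edgeR with no filter, and for DHT in shScramble 2 were called with no filter (RUNX2 and RUNX3), which returned to 1 without shScramble DHT- replicate 3, an alternative chosen after seeing the data. Over all genes, calls without DHT were 180 by DESeq2, 157 with no filter, 46 from the libraries of the comparison, 46 and 50 in the first and second column, 144 with the replicate block and 32 to 117 with 1 library left out. Interaction calls were 1199 by DESeq2, 494 in the second column and 465 to 765 with 1 library left out, and calls for DHT in shTMEFF2 466 to 902. Between DHT- and DHT+ of a line, same-numbered libraries correlated at 0.0546 to 0.169 and differently numbered ones at -0.140 to 0.0037. Between the lines these values were -0.0017 to 0.0977 and -0.119 to 0.0658. A shared effect of the replicate number is therefore possible within a line, was not tested, and is not in the main fit. The replicate block left the call of each member as it was (RUNX2 without DHT, edgeR adjusted p = 0.064) and gave 1120 interaction calls against 761.

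Signs turned only for values that passed no test. In this paragraph, without DHT and with DHT stand for shTMEFF2 against shScramble in that condition. For RUNX1 these were DHT in shScramble (-0.41 in the first column, -0.038 to 0.52 with 1 library left out) and, in the second column, without DHT (0.029, and -0.43 to 0.11), with DHT (-0.40, and -0.12 to 0.43) and the interaction (-0.43). CBFB turned for DHT in shScramble (0.25 in the second column, -0.058 to 0.057) and without DHT (-0.095 in the first column, -0.044 to 0.070). RUNX2 turned for shTMEFF2 against shScramble with DHT (0.076 in the first column, -0.23 to 0.045), and its DHT response did not turn in either line. OACYLP turned without DHT (0.15 in the second column), with DHT (0.0012 by library size, 0.0069 in the first column, -0.16 to 0.10) and in the interaction (-0.27 in the second column). The interaction of OSBPL8 (0.025 by library size, -0.12 to 0.032) and of TMEFF2 (-0.053 in the first column, -0.23 to 0.25) turned as well. The cause was not tested. RUNX3 and RUNX1T1 were too low in most libraries for a fold change to be read.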
